A study of Homo sapiens with 39 samples.

Results

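The matrix metalloproteinases (MMPs) described here are 9 genes, MMP1, MMP2, MMP3, MMP7, MMP9, MMP10, MMP12, MMP13 and MMP14, together with TIMP1, a secreted inhibitor of these enzymes. They were chosen by gene symbol, as 10 of the 20041 genes that the probes of the array name, and the brightest probe on average stood for a gene that had several. The choice was made with earlier results of these data known, so counts of called members describe the set and do not test it. Of the 10 genes, 8 exceeded the background in all samples of 1 group or more and were tested, as were 11296 genes in all, and the other two, MMP9 and MMP13, are given as values only.

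MMPs are zinc-dependent endopeptidases that are made with a propeptide which keeps them inactive until it is cut off or displaced. They degrade the proteins of the extracellular matrix, and they also release or trim growth factors and cytokines. Collagenases (MMP1, MMP13) open fibrillar collagen, gelatinases (MMP2, MMP9) digest the unfolded chains and basement membrane collagen, and stromelysins (MMP3, MMP10), matrilysin (MMP7) and metalloelastase (MMP12) take a broad range of matrix proteins. The tissue inhibitors of metalloproteinases (TIMPs) block the active site of the mature enzymes. In glioblastoma these proteases are known for their part in the invasion of brain tissue, and several of them belong to the proteins that senescent cells secrete.

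RNA came from cultures of U87-MG, a single established human glioblastoma line grown with serum, and was read on HumanHT-12 v4 bead arrays from Illumina. Cultures were sham irradiated (0Gy) or received 1 acute gamma ray dose of 8Gy or 16Gy, and were harvested on day 1, 4, 6 or 35, with 3 samples of each dose on days 1, 4 and 6 and 4 samples of each dose on day 35 (39 samples, 12 groups). The first replicate of the short-term groups is an average of 2 arrays made by the authors, day 35 stands for harvests on consecutive days of cultures that had been replated every few days since irradiation, and its 4 samples stand for 3 independent experiments in the series' design text, while the methods count 4 experimental replicates. The sample labels name only dose, day and replicate number, and all groups held the same cell line with no engineered genetic change named. Changes that irradiation may have left in the genome of the cells were not measured. All 7 markers fixed for mesenchymal glioma cells, among them VIM and CD44, were above background in 39 of 39 samples, whereas of 14 measured markers of leukocytes, endothelium, neurons, oligodendrocytes and epithelium only CD14 (6.87 to 7.75) and SNAP25 (8.95 to 10.19) were above it in every sample. EPCAM was above it in 23 of 39 samples, SYT1 in 11, PECAM1 in 10 and the others in 0 to 2, with PTPRC, CDH5, MOG and CDH1 above it in none. Between 16553 and 20290 probes per sample were above background. Values are log2 signals as deposited, and the background threshold, set in each sample by the probes of olfactory receptor genes, lay between 6.78 and 6.90. Arrays of whole cultures cannot tell apart a change in the number of cells that express a gene and a change in RNA per cell.

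Of the 10 genes, 6 lie together in a stretch of 435.2 kb on chromosome 11 (GRCh38.p14, 102520508 to 102955732), in the order MMP7, MMP10, MMP1, MMP3, MMP12 and MMP13. MMP2 lies on chromosome 16 (55478830 to 55506691), MMP9 on chromosome 20 (46008908 to 46016561), MMP14 on chromosome 14 (22836585 to 22847758) and TIMP1 on chromosome X (47582436 to 47586789). Promoters of 4 members were in the RefSeq table for GRCh38.p14, and the 100 bases before the annotated start are shown because 2 of these genes (MMP7, MMP10) were induced from background, 1 (TIMP1) rose from a high level and 1 (MMP14) did not pass the test. Capitals mark the letters TGANTCA, the core of sites bound by the transcription factor AP-1, and TATAAA, the TATA box.
MMP7, chr11:102530748-102530847, minus strand: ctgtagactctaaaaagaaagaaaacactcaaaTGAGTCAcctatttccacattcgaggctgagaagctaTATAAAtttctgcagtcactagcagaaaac
MMP10, chr11:102780629-102780728, minus strand: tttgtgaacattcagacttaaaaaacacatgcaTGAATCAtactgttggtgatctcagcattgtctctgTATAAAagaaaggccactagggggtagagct
MMP14, chr14:22836485-22836584, plus strand: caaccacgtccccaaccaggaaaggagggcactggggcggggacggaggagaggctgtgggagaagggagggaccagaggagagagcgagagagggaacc
TIMP1, chrX:47582336-47582435, plus strand: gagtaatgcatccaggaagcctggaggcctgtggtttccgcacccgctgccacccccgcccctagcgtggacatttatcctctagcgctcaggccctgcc

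Both chromosome 11 genes with a promoter in the RefSeq table held a TGANTCA match at the same distance, with its first base at -67. Each also held a TATAAA match, with its first base at -30 in MMP7 and at -31 in MMP10, counting from the annotated start. Promoters of MMP1, MMP3 and MMP12, the other called genes of chromosome 11, were not in that table and were not searched. In the 250 bases before the start, searched on both strands, neither motif was found in MMP14 or TIMP1. Only these exact letters were searched, so an AP-1 site or TATA box that departs from them would be missed. The result does not show that the promoters of MMP14 and TIMP1 lack such sites. TGANTCA reads as TGANTCA on the other strand too, so each match was found on both strands, and the 2 motifs did not overlap. Over the 27305 promoters of the table, 6.6% held TGANTCA and 11.1% held TATAAA in the same 250 bases. In the last 100 bases before the start the shares were 2.7% and 5.34%. These matches are a description of sequence and were not tested for binding.

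**Figure D1:**
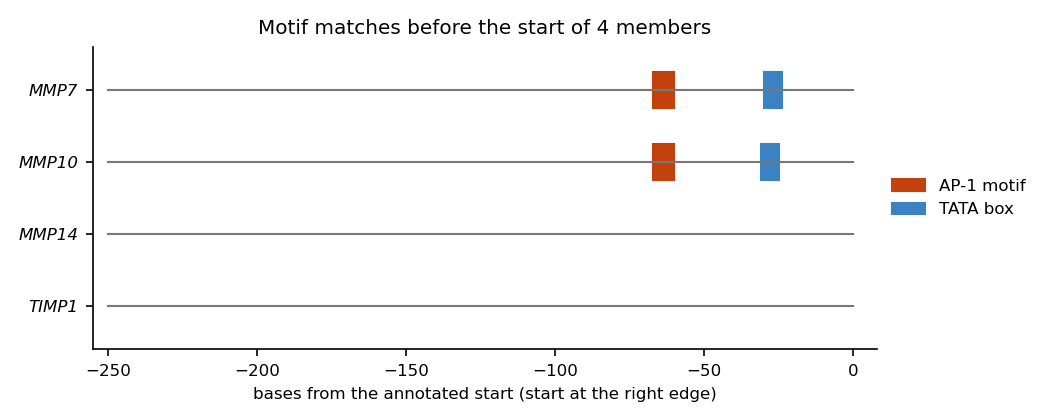
Matches of TGANTCA (orange) and TATAAA (blue) in the 250 bases before the annotated start of 4 members, with the distance from the start in bases on the x axis and a line per gene. MMP7 and MMP10 each hold both motifs, with the AP-1 match starting at -67, and MMP14 and TIMP1 hold neither in these exact letters. Sites with other letters were not searched.

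On day 1 after irradiation no member passed the test. A gene was called when its adjusted p was under 0.10 over all genes tested and its fold change over 1.5, in limma fits of all samples of days 1, 4 and 6. Rises and falls at a dose are differences from 0Gy of the same day, so they also depend on the level of the sham irradiated cultures. At 8Gy 0 of the 8 tested members were called, beside 0.133% of all genes, and at 16Gy 0 of 8, beside 1.22% of all genes. The log2 fold changes of the 8 members against 0Gy had a median of 0.09 at 8Gy and 0.13 at 16Gy, against medians of 0.01 and 0.01 over all genes tested. The largest on day 1 was that of MMP3 at 16Gy, with 0.33 (SE 0.25, adjusted p = 0.561).

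At 16Gy 5 secreted MMPs (MMP1, MMP3, MMP7, MMP10 and MMP12) and TIMP1 were higher than at 0Gy by day 6. Members called on day 4 were 3 of 8 at 8Gy (MMP3, MMP12 and TIMP1), beside 1.79% of all genes, and 5 of 8 at 16Gy (the same genes with MMP1 and MMP10), beside 4.67% of all genes. On day 6 they were 4 of 8 at 8Gy (MMP1, MMP3, MMP12 and TIMP1), beside 3.23% of all genes, and 6 of 8 at 16Gy (with MMP7 and MMP10 as well), beside 7.86% of all genes. All of these calls were higher in irradiated cultures. MMP7, MMP10 and MMP12 were above background in every sample of irradiated groups only, and so entered the test through the groups in which they were high, which makes their share of calls no evidence about the family. The median log2 fold change of the 8 members against 0Gy was 0.53 at 8Gy and 0.98 at 16Gy on day 6, and over all genes tested it was -0.03 for both.

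**Figure D2:**
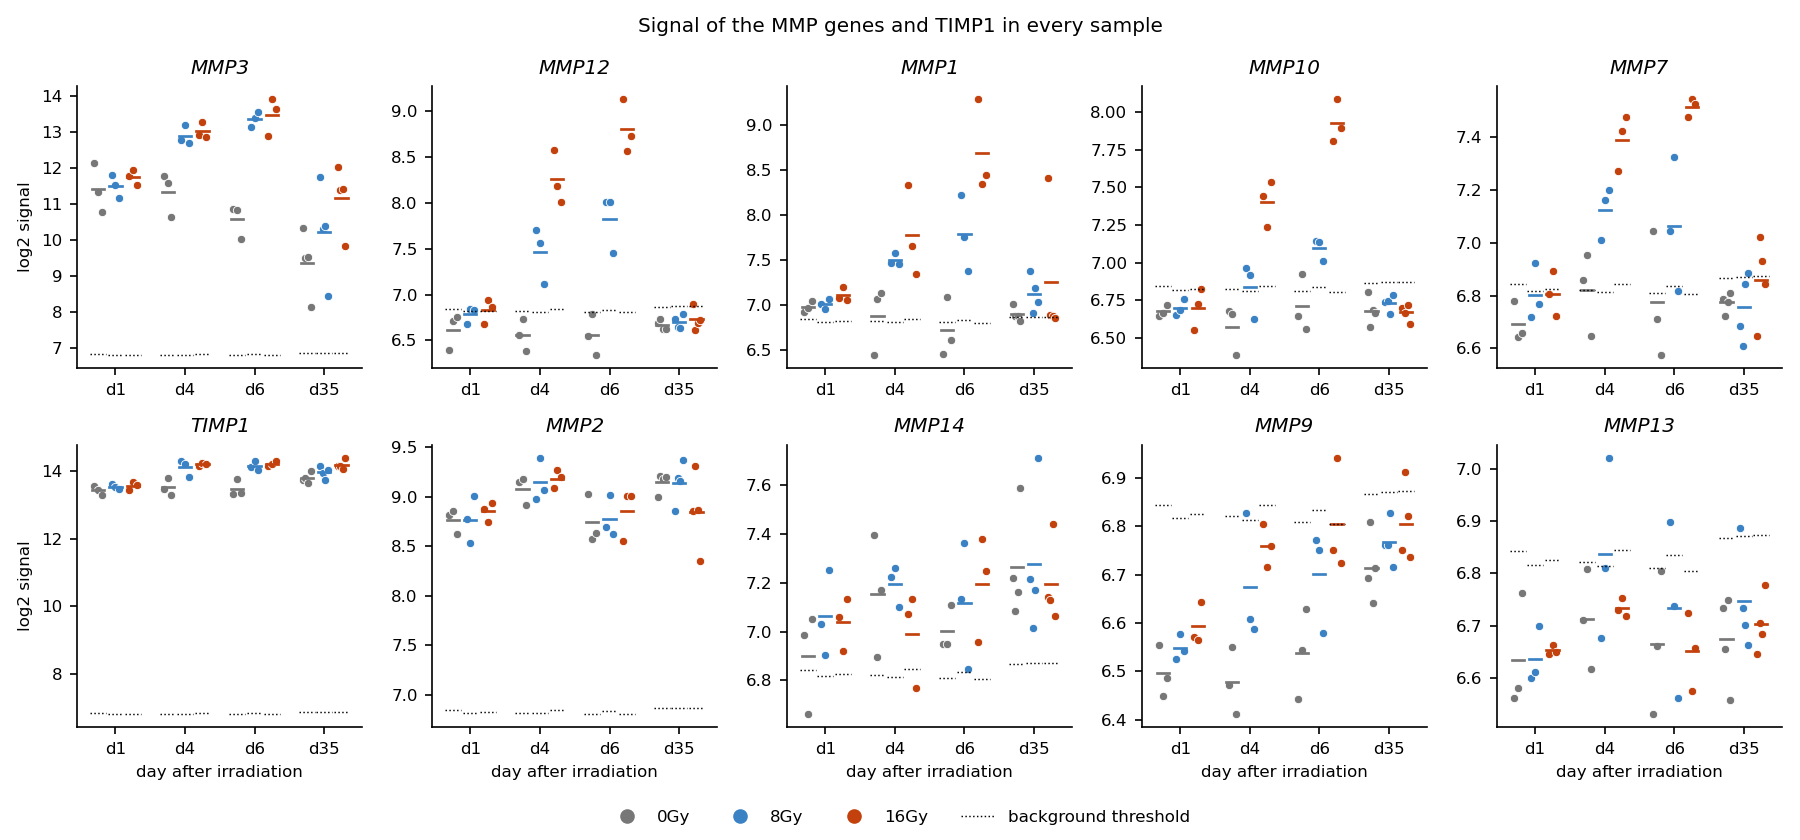
Log2 signal of each member in every sample (points) with the group mean (bar), for 0, 8 and 16Gy on days 1, 4, 6 and 35; each panel has its own y axis, and the dotted line is the mean background threshold of the group. On day 6 the irradiated samples of MMP3, MMP12 and MMP1 lie above every 0Gy sample, and MMP9 and MMP13 stay near or under the background throughout.

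MMP3, or stromelysin-1, which cleaves proteoglycans and laminin and can activate other pro-MMPs, had the largest measured log2 fold change of the members on day 6, at both doses. On day 4 its log2 signal was 11.78, 11.58 and 10.64 at 0Gy, 12.79, 13.20 and 12.70 at 8Gy, and 12.92, 13.28 and 12.89 at 16Gy. On day 6 it was 10.88, 10.84 and 10.04 at 0Gy, 13.15, 13.41 and 13.57 at 8Gy, and 12.91, 13.93 and 13.65 at 16Gy. All irradiated samples of both days were above all 0Gy samples of the same day, and the 2 doses overlapped. Against 0Gy, the fold change on day 4 was 2.95 at 8Gy (log2 1.56, SE 0.25, adjusted p = 0.000207) and 3.24 at 16Gy (log2 1.69, SE 0.25, adjusted p = 1.84e-05). On day 6 it was 6.92 at 8Gy (log2 2.79, SE 0.25, adjusted p = 6.15e-09) and 7.52 at 16Gy (log2 2.91, SE 0.25, adjusted p = 5.70e-10). At 16Gy on day 6 this was the rise ranked 9 among the 11296 genes tested.

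The level of MMP3 in sham irradiated cultures was also lower on day 6, with 10.59 ± 0.47 against 11.33 ± 0.61 on day 4 (SD, n = 3 each), a log2 difference of -0.75 (SE 0.25) that did not pass the adjustment (adjusted p = 0.998). In irradiated cultures the mean was 13.38 ± 0.22 on day 6 and 12.90 ± 0.26 on day 4 at 8Gy. At 16Gy it was 13.50 ± 0.53 on day 6 and 13.03 ± 0.22 on day 4. The change of the dose effect between days 4 and 6 was 1.23 (SE 0.35, adjusted p = 0.999) at 8Gy and 1.22 (SE 0.35, adjusted p = 0.534) at 16Gy.

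MMP12, the metalloelastase named for macrophages, was under the background threshold in all 0Gy samples of days 1, 4 and 6. On day 4 it read 6.56, 6.73 and 6.38 at 0Gy, 7.70, 7.56 and 7.12 at 8Gy, and 8.57, 8.19 and 8.00 at 16Gy. On day 6 it read 6.55, 6.78 and 6.34 at 0Gy, 8.02, 8.01 and 7.45 at 8Gy, and 9.14, 8.57 and 8.73 at 16Gy. Groups did not overlap on either day, and the order was 0, 8 and 16Gy. Because the 0Gy arrays give only a bound, the rise is given as a lower limit, the irradiated mean over the mean of the threshold or the signal of the 0Gy arrays, whichever was higher. The adjusted p-values beside these limits come from the limma fit of the measured signals and do not test the limits. At 8Gy the rise was at least 1.56-fold on day 4 (adjusted p = 0.000525) and at least 2.02-fold on day 6 (adjusted p = 1.38e-06). At 16Gy it was at least 2.70-fold on day 4 (adjusted p = 7.27e-09) and at least 4.00-fold on day 6 (adjusted p = 8.61e-12). A second probe for MMP12 averaged 8.59 ± 0.11 at 16Gy and 6.58 ± 0.20 at 0Gy on day 6 (SD, n = 3 each), a difference of 2.01, beside 2.25 for the probe used.

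MMP1, the interstitial collagenase, was close to background in sham irradiated cultures. On day 4 its log2 signal was 6.44, 7.07 and 7.13 at 0Gy, 7.46, 7.57 and 7.46 at 8Gy, and 8.33, 7.66 and 7.34 at 16Gy. On day 6 it was 6.46, 7.09 and 6.61 at 0Gy, 8.22, 7.75 and 7.37 at 8Gy, and 9.28, 8.34 and 8.44 at 16Gy. In the first 16Gy culture of each day the signal was above the others of its group, and still no irradiated sample overlapped with 0Gy. At 16Gy MMP1 rose 1.86-fold on day 4 (log2 0.90, SE 0.22, adjusted p = 0.00681) and 3.91-fold on day 6 (log2 1.97, SE 0.22, adjusted p = 8.55e-08). At 8Gy it rose 2.09-fold on day 6 (log2 1.06, SE 0.22, adjusted p = 0.00206), whereas on day 4 its log2 fold change of 0.62 (SE 0.22) had an adjusted p of 0.179. At 0Gy 2 of 3 samples were above background on day 4 and 1 of 3 on day 6, and with signals under the background raised to its threshold the log2 fold changes were 0.76 at 16Gy on day 4, and 0.88 at 8Gy and 1.78 at 16Gy on day 6. With day 4 fitted alone and its own replicate term, the adjusted p at 8Gy was 0.0785.

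MMP10, or stromelysin-2, and MMP7, or matrilysin, the smallest of these enzymes, were near background and were called at 16Gy only. MMP10 read 7.44, 7.24 and 7.53 at 16Gy on day 4, against 6.68, 6.66 and 6.38 at 0Gy. With the 0Gy signals under the threshold, it rose at least 1.498-fold (limma on the measured signals, adjusted p = 1.97e-06). On day 6 it read 6.65, 6.92 and 6.56 at 0Gy, 7.14, 7.14 and 7.01 at 8Gy, and 7.81, 8.09 and 7.89 at 16Gy, where it rose 2.33-fold (log2 1.22, SE 0.11, adjusted p = 8.19e-10). On day 6 1 of 3 0Gy samples was above background, and with signals raised to the threshold the log2 fold change at 16Gy was 1.08. At 8Gy on day 6 its log2 fold change of 0.39 (SE 0.11, adjusted p = 0.0225) passed the p threshold and not the fold threshold.

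MMP7 read 7.04, 6.71 and 6.57 at 0Gy, 7.04, 7.32 and 6.82 at 8Gy, and 7.47, 7.54 and 7.52 at 16Gy on day 6. The 16Gy samples lay close together and above the rest, while those of 8Gy overlapped with 0Gy. MMP7 rose 1.67-fold at 16Gy on day 6 (log2 0.74, SE 0.11, adjusted p = 7.82e-06), with 1 of 3 0Gy samples above background, and by a log2 value of 0.62 with signals raised to the threshold. On day 4 at 16Gy its fold change of 1.48 (log2 0.57, SE 0.11, adjusted p = 0.000498) fell just short of the fold threshold, and it passed with the mean of its 2 probes (log2 0.63), or without replicate 1 or 2 of 0Gy or replicate 1 or 2 of 16Gy on that day (log2 0.59 to 0.64). In the other alternatives it stayed uncalled, with a log2 value as low as 0.52 across settings and 0.48 with a sample left out. A second probe for MMP7 gave a difference of 0.84 at 16Gy on day 6, with 7.56 ± 0.16 at 16Gy and 6.73 ± 0.18 at 0Gy (SD, n = 3 each).

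TIMP1 was among the brightest genes of the array in every group. On day 4 its log2 signal was 13.46, 13.80 and 13.29 at 0Gy, 14.30, 14.21 and 13.83 at 8Gy, and 14.13, 14.24 and 14.21 at 16Gy. On day 6 it was 13.31, 13.77 and 13.34 at 0Gy, 14.10, 14.29 and 14.02 at 8Gy, and 14.15, 14.19 and 14.29 at 16Gy. Irradiated samples were above the 0Gy samples of their day throughout, by a small margin over the highest 0Gy sample. At 16Gy it rose 1.60-fold on day 4 (log2 0.68, SE 0.12, adjusted p = 0.000263) and 1.67-fold on day 6 (log2 0.74, SE 0.12, adjusted p = 4.16e-05). At 8Gy it rose 1.51-fold on day 4 (log2 0.59, SE 0.12, adjusted p = 0.00357) and 1.58-fold on day 6 (log2 0.66, SE 0.12, adjusted p = 0.000475).

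The 8Gy calls of TIMP1 sat close to the fold threshold. The day 4 call was lost without replicate 1 of 0Gy (log2 0.57), replicate 3 of 0Gy (log2 0.52) or replicate 1 of 8Gy (log2 0.48), and the day 6 call without replicate 1 of 0Gy (log2 0.58). At 16Gy on day 6 only 4 genes had a higher mean signal than TIMP1, against 63 genes at 0Gy, and the top of the scale, the highest mean signal of any gene, was 14.30 in both groups. The part of this position on the scale in the size of the TIMP1 fold changes was not tested.

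MMP2 and MMP14 did not pass the test in any comparison. MMP2, or gelatinase A, was well above background in 39 of 39 samples, and lay between 8.55 and 9.01 at 16Gy on day 6, against 9.03, 8.57 and 8.63 at 0Gy. The groups overlapped, and the log2 fold change was 0.11 (95% confidence interval -0.22 to 0.43). MMP14, the membrane-type enzyme that activates pro-MMP2 at the cell surface, read 6.96, 7.38 and 7.25 at 16Gy on day 6, against 6.95, 6.95 and 7.11 at 0Gy, a log2 fold change of 0.19 (95% confidence interval -0.09 to 0.47). On day 4 at 16Gy the log2 fold change of MMP14 was -0.16 (95% confidence interval -0.44 to 0.12). These intervals leave out a rise of the size of that of MMP1, MMP3, MMP10 or MMP12 at 16Gy on day 6, and they do not show that the levels were equal.

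MMP9, or gelatinase B, and MMP13, or collagenase 3, had no group in which every sample was above background, and each was above it in 3 of 39 samples. The log2 signal of MMP9 was 6.75, 6.94 and 6.72 at 16Gy on day 6, against 6.44, 6.54 and 6.63 at 0Gy. That of MMP13 was 6.72, 6.57 and 6.66 at 16Gy on day 6, against 6.53, 6.66 and 6.80 at 0Gy. At these signals a difference could not be told from background.

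**Figure D3:**
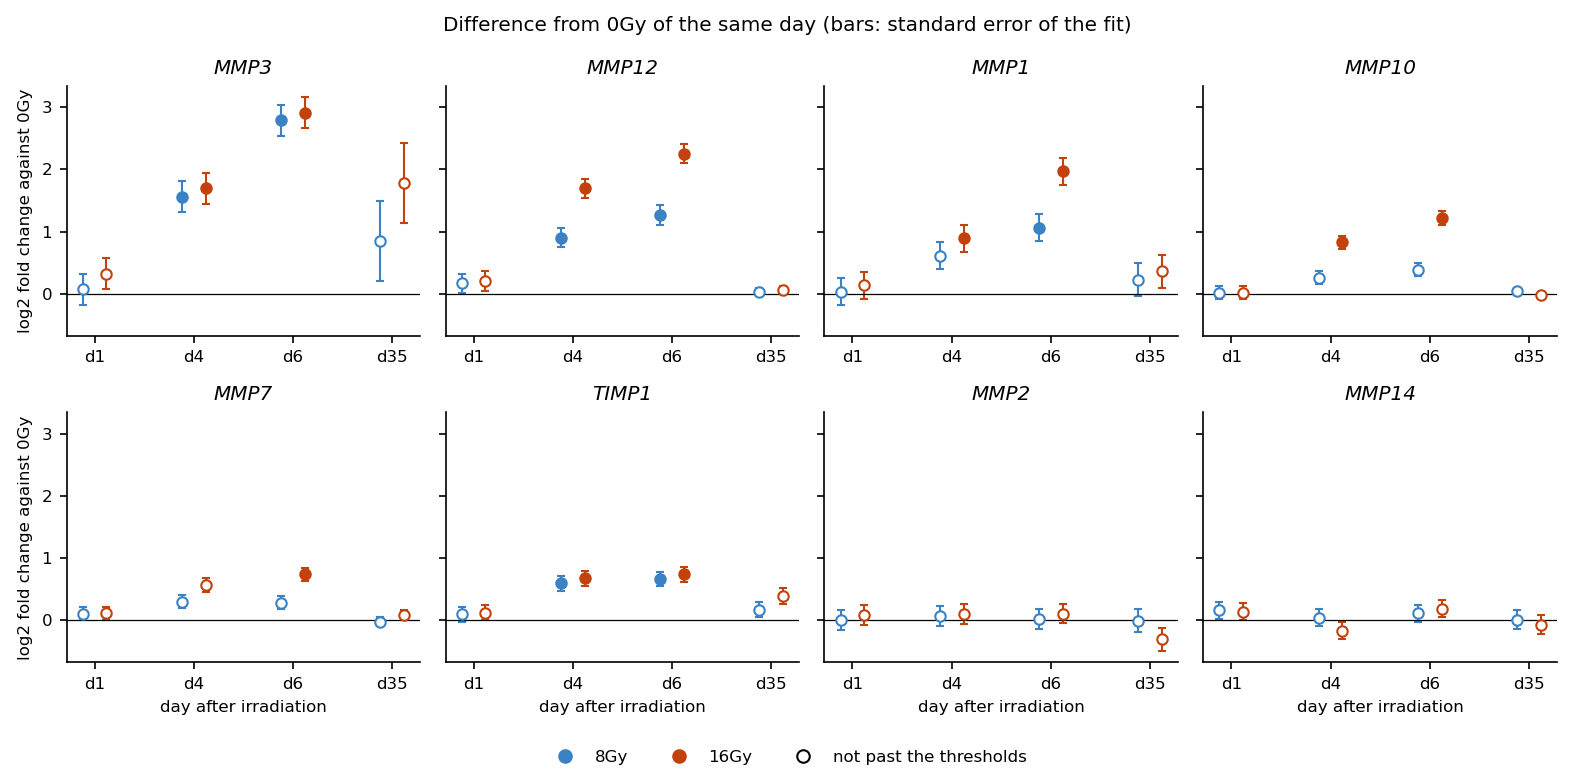
Log2 fold change of the 8 tested members against 0Gy of the same day, at 8Gy (blue) and 16Gy (orange) on days 1, 4, 6 and 35, with the standard error of the limma fit; filled points passed the thresholds. MMP3 reaches 2.91 at 16Gy on day 6, while MMP2 and MMP14 pass the thresholds on no day, with MMP2 at -0.30 at 16Gy on day 35. All 0Gy signals were under the background for MMP12 on all days, for MMP10 on days 1, 4 and 35 and for MMP7 on days 1 and 35, and values there are differences of the measured means.

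The dose effect changed between days for a few members, which was tested on the difference of the effects themselves. Between day 1 and day 4 the effect of 8Gy grew for MMP3 by a log2 value of 1.49 (SE 0.35, adjusted p = 0.0683), which made 1 of 8 members called beside 0.39% of all genes. The effect of 16Gy grew over the same interval for MMP12 by 1.49 (SE 0.22, adjusted p = 0.00012), for MMP3 by 1.37 (SE 0.35, adjusted p = 0.0245) and for MMP10 by 0.81 (SE 0.15, adjusted p = 0.0019), which made 3 of 8 members beside 4.61% of all genes. The changes of TIMP1 (0.55, SE 0.17, adjusted p = 0.0658) and MMP7 (0.46, SE 0.15, adjusted p = 0.0896) passed the p threshold and not the fold threshold. On both days the 0Gy signals of MMP10 and MMP12 were all under the background. These genes entered the test through irradiated groups in which they were high, so the share of calls at 16Gy is no evidence about the family. Between day 4 and day 6 no member was called at 8Gy (0% of all genes) or 16Gy (0.062% of all genes). In sham irradiated cultures no member was called between days 1 and 4 (6.43% of all genes) or between days 4 and 6 (0% of all genes).

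Set against each other on the same day, 16Gy gave higher signals than 8Gy for MMP12 on day 4 and for MMP1, MMP10 and MMP12 on day 6, and no other member was called. On day 1 no member was called, as no gene was (0% of all genes). On day 4 1 of 8 members was called, beside 0.0177% of all genes, and on day 6 3 of 8, beside 0.398% of all genes. MMP10 and MMP12 entered the test through irradiated groups in which they were high, so these shares are no evidence about the family. MMP12 was higher at 16Gy than at 8Gy on both days, by 1.74-fold on day 4 (log2 0.80, SE 0.15, adjusted p = 0.0568) and 1.98-fold on day 6 (log2 0.99, SE 0.15, adjusted p = 0.00188). On day 6 MMP10 was 1.78-fold higher at 16Gy (log2 0.83, SE 0.11, adjusted p = 5.28e-05) and MMP1 1.87-fold higher (log2 0.90, SE 0.22, adjusted p = 0.053). MMP7 was 1.37-fold higher on day 6 (log2 0.45, SE 0.11, adjusted p = 0.0505) and MMP10 1.48-fold higher on day 4 (log2 0.57, SE 0.11, adjusted p = 0.0568), both under the fold threshold, with 2 of 3 8Gy samples above background in each case.

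For MMP3 the log2 difference of 16Gy from 8Gy on day 6 was 0.12, with a 95% confidence interval of -0.39 to 0.62. For TIMP1 it was 0.08, with a 95% confidence interval of -0.17 to 0.32. The calls of MMP12 on day 4 and of MMP1 on day 6 depended on single samples. MMP12 on day 4 lost its call without replicate 2 (log2 0.81) or 3 (log2 0.68) of 8Gy, or replicate 1 (log2 0.65) or 3 (log2 0.86) of 16Gy. MMP1 on day 6 lost it without replicate 2 (log2 0.88) or 3 (log2 0.73) of 8Gy, or replicate 1 (log2 0.62) or 3 (log2 0.99) of 16Gy. MMP10 on day 4 gained a call without replicate 1 (log2 0.65) or 2 (log2 0.59) of 8Gy or replicate 2 of 16Gy (log2 0.69).

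**Figure D4:**
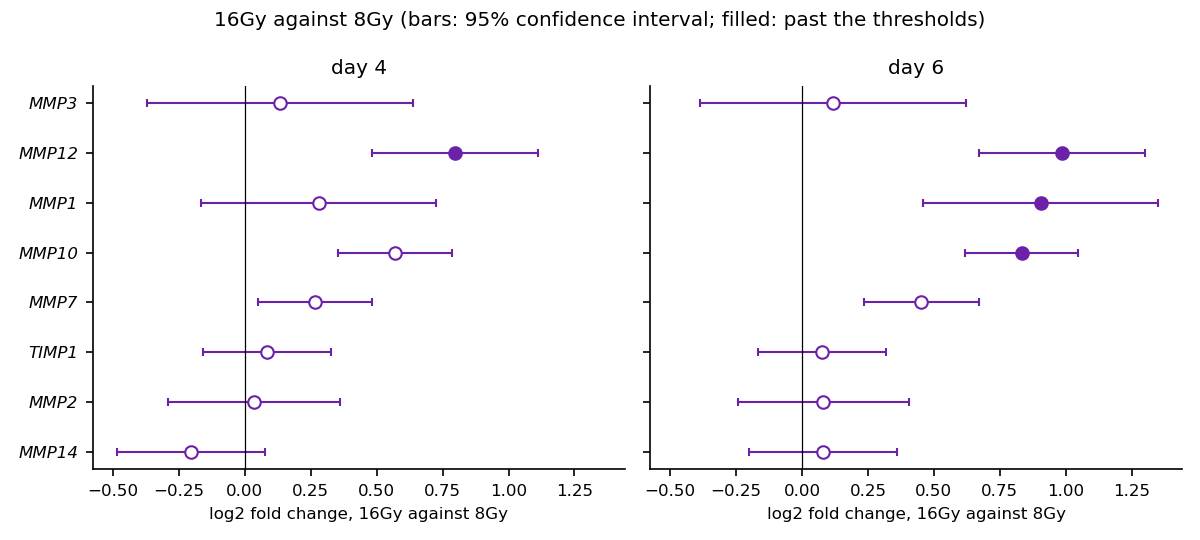
Log2 fold change of 16Gy against 8Gy for the 8 tested members on days 4 and 6, with 95% confidence intervals of the limma fit; filled points passed the thresholds. MMP12, MMP1 and MMP10 lie to the right of 0 on day 6, and the intervals of MMP3 and TIMP1 include 0 on both days. TIMP1 lay near the top of the scale at both doses.

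By day 35 the induced members near background were no longer separated by dose. None of the 8 members was called at 8Gy (0% of all genes), at 16Gy (0.00885% of all genes) or between 16Gy and 8Gy (0% of all genes). At an unadjusted p under 0.05 in the limma fit, MMP3 (p = 0.0154) and TIMP1 (p = 0.00684) differed between 16Gy and 0Gy, and exact permutation tests of both are given with their values. MMP12 read 6.90, 6.62, 6.69 and 6.72 at 16Gy, against 6.69, 6.74, 6.62 and 6.63 at 0Gy, and MMP10 read 6.70, 6.66, 6.72 and 6.59 at 16Gy, against 6.80, 6.57, 6.68 and 6.66 at 0Gy. With 1 exception, MMP12 in replicate 1 of 16Gy, these signals were under the background. MMP7 lay between 6.65 and 7.02 at 16Gy, against 6.72 to 6.81 at 0Gy.

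MMP3 was the member with the largest difference on day 35, and its level followed the replicate number. In replicates 1 to 4 its log2 signal was 10.34, 9.50, 9.55 and 8.15 at 0Gy, 11.76, 10.33, 10.41 and 8.45 at 8Gy, and 12.04, 11.39, 11.42 and 9.84 at 16Gy. Replicate 1 was highest and replicate 4 lowest at each dose, so that the groups overlapped, while the order within each number was 0, 8 and 16Gy in 4 of 4. The fold change at 16Gy was 3.45 (log2 1.79, SE 0.64, adjusted p = 0.857), and a two-sided exact permutation test gave p = 0.0571, where the smallest p that 4 against 4 samples allow is 0.0286. In a fit that treats the replicate number as a block, the standard error was 0.16 and the adjusted p was 0.00221, which made MMP3 the 1 member of 8 called at 16Gy, beside 0.0797% of all genes. Same-numbered day 35 samples deviated together (mean correlations of 0.62, 0.40, 0.28 and 0.71), and whether each number marks a separate experiment is not settled, since the series' design text counts 3 experiments for the 4 samples and the methods count 4 replicates. At 8Gy the log2 fold change of MMP3 was 0.85 (SE 0.64, adjusted p = 1.00).

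TIMP1 was higher at 16Gy than at 0Gy on day 35 without overlap, with 14.15, 14.14, 14.05 and 14.39 at 16Gy against 13.72, 13.79, 13.66 and 14.00 at 0Gy, a log2 fold change of 0.39 (SE 0.12). The two-sided exact permutation test gave p = 0.0286, the smallest that 4 against 4 samples allow. Across all genes the adjusted p was 0.857 without the block and 0.344 with it, and the fold change of 1.31 was under the threshold. MMP1 read 8.41, 6.89, 6.88 and 6.86 at 16Gy, against 7.02, 6.88, 6.88 and 6.82 at 0Gy, so that its log2 fold change of 0.36 (SE 0.27, adjusted p = 0.857) rested on replicate 1, without which it was -0.02. MMP2 had a log2 fold change of -0.30 (SE 0.19, adjusted p = 0.857), and MMP14 of -0.07 (SE 0.15, adjusted p = 0.923).

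**Figure D5:**
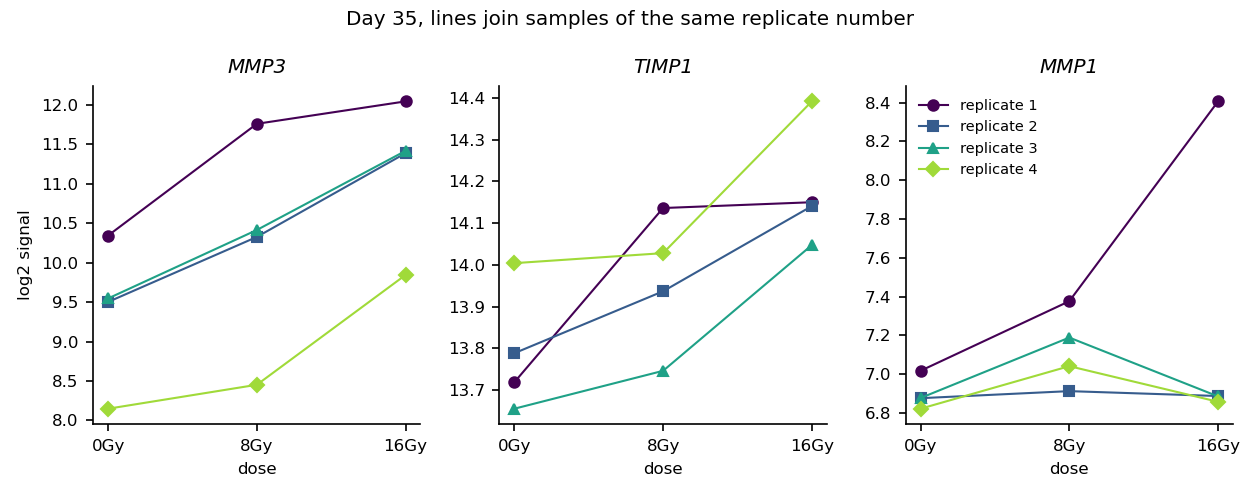
Log2 signal of MMP3, TIMP1 and MMP1 on day 35 at 0, 8 and 16Gy, with a line for each replicate number. MMP3 increases with dose in 4 of 4 numbers although its level differs between them, and the MMP1 signal of 8.41 in replicate 1 at 16Gy stands apart from the other samples.

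The genes around these proteases were read from lists of their relatives, inhibitors, activators and regulators, whose counts are descriptions. Of 14 other MMP genes, 3 were tested and 0 were called on day 4 (beside 1.79% of all genes at 8Gy and 4.67% at 16Gy) or day 6 (beside 3.23% and 7.86%). Of 6 other MMP inhibitors 5 were tested, and at 16Gy on day 6 2 were higher and 1 was lower, beside 7.86% of all genes called. TIMP3, an inhibitor that binds to the matrix, rose at 16Gy by a log2 value of 1.31 on day 6 (SE 0.26, adjusted p = 0.000522), and TFPI2, a serine protease inhibitor also reported to act on MMPs, by 0.94 (SE 0.23, adjusted p = 0.00464). TIMP4 was lower at 16Gy on day 6, with 8.80 ± 0.19 against 9.79 ± 0.32 at 0Gy (SD, n = 3 each), a log2 fold change of -0.99 (SE 0.19, adjusted p = 0.000267). TIMP1 and TIMP4 thus differed from 0Gy in opposite directions at both doses on days 4 and 6, as TIMP4 was lower at 8Gy by 0.61 on the log2 scale on day 4 (adjusted p = 0.0873) and by 0.66 on day 6 (adjusted p = 0.0265). From day 1 to day 6 the mean of TIMP4 went from 8.665 to 9.79 at 0Gy, from 8.85 to 9.13 at 8Gy and from 9.07 to 8.80 at 16Gy. At 8Gy it thus increased, by less than in sham irradiated cultures.

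Of 12 genes of the plasminogen system and other activators or inducers of MMPs, 8 were tested, and 2 were higher at each dose on day 6, beside 3.23% of all genes called at 8Gy and 7.86% at 16Gy. Plasmin can cut the propeptide of several MMPs, and PLAUR, the receptor that holds urokinase at the cell surface, was higher than at 0Gy by a log2 value of 1.53 at 16Gy (SE 0.15, adjusted p = 7.58e-09) and 1.20 at 8Gy (SE 0.15, adjusted p = 2.08e-06). From day 1 to day 6 the mean of PLAUR went from 11.04 to 10.04 at 0Gy, from 11.13 to 11.24 at 8Gy and from 11.06 to 11.57 at 16Gy. PLAU, urokinase itself, was higher than at 0Gy by 0.60 at 8Gy (SE 0.17, adjusted p = 0.0285) and had a log2 fold change of 0.49 at 16Gy (SE 0.17, adjusted p = 0.039), under the fold threshold. From day 1 to day 6 the mean of PLAU went from 11.75 to 10.93 at 0Gy and from 11.695 to 11.53 at 8Gy. Its level at 8Gy thus did not increase over these days, while that of the sham irradiated cultures was lower on day 6. PLAT, the tissue-type activator, rose by 0.65 at 16Gy (SE 0.18, adjusted p = 0.0125). On day 4 PLAUR alone of these 8 was called, at both doses, beside 1.79% of all genes at 8Gy and 4.67% at 16Gy.

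All 13 AP-1 and ETS transcription factors on the list were tested, and 4 were higher and 1 lower at each dose on day 6, beside 3.23% of all genes called at 8Gy and 7.86% at 16Gy. The AP-1 subunits FOSB, JUN and FOSL1 were higher at 16Gy than at 0Gy by log2 values of 1.67 (SE 0.16, adjusted p = 6.35e-09), 0.87 (SE 0.16, adjusted p = 0.000157) and 0.86 (SE 0.20, adjusted p = 0.0021). From day 1 to day 6 the mean of FOSL1 went from 9.28 to 9.20 at 16Gy and from 9.64 to 8.34 at 0Gy. That of JUN went from 11.365 to 11.69 at 16Gy and from 11.41 to 10.82 at 0Gy. FOSB had means of 7.13 and 7.115 at 0Gy on these days, and of 7.48 and 8.78 at 16Gy. ETS2 rose by 0.83 (SE 0.12, adjusted p = 8.66e-06). ETV1 fell at 16Gy by 0.68 on the log2 scale (SE 0.12, adjusted p = 0.000128) and at 8Gy by 0.59 (SE 0.12, adjusted p = 0.00193), and it is named here after its values were seen, to complete the count. FOSB was the 1 factor of the list that differed between 16Gy and 8Gy on day 6, by 0.71 (SE 0.16, adjusted p = 0.041), beside 0.398% of all genes. None of the 13 was called on day 35.

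The genes whose 6 short-term log2 fold changes lay nearest to those of each called member were named by a fixed rule, as a description over comparisons that share their 0Gy samples. For MMP1 they were SERPINB7 and GREM1, at root mean square distances of 0.12 and 0.141. For MMP3 they were IL1RN and LIF (0.231 and 0.328), with log2 fold changes of 2.70 for IL1RN and 2.86 for LIF at 16Gy on day 6. For MMP12 they were PSG4 and SPRR2D (0.125 and 0.14), for MMP10 the histone genes H4C8 and H2BC8 (0.0979 and 0.103), and for MMP7 IL23A and MAP3K8 (0.0741 and 0.0761). For TIMP1 they were ETS2 and MSC (0.0681 and 0.0746). Distances grow with the size of a change and are not comparable between members.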

How the data were processed

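Probe signals were exported by the authors with GenomeStudio, named in the submitters' processing notes. The deposited values are log2 signals that the authors quantile normalized in GenePattern, once over the 27 samples of days 1, 4 and 6 and once over the 12 of day 35, so levels were compared within each set only. On the 27 samples the authors also ran ComBat, which can lower the spread between replicates, and its batches are not given in the sources used here. Unnormalized signals (96 columns, 48 arrays) were left out because no column could be matched to a sample. Of 47300 probes, 30100 had 1 gene symbol in the platform annotation, 8 had several and 17192 had none, and symbols were updated through RefSeq (GRCh38.p14). The floor at a signal of 16 changed 0 values.

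Background in each sample was the signal exceeded by a share under 0.05 of 455 olfactory receptor probes, on the assumption that these genes are silent in the line. All adjusted p-values come from limma 3.58.1 in R 4.3.3 (mean-variance trend, Benjamini-Hochberg over the 11296 genes tested in each comparison), with a term for the replicate number on days 1, 4 and 6 and none on day 35, and the SE given is limma's. Contrasts were each dose with 0Gy of its day, and 16Gy with 8Gy. The fits were also run on simulated data with independent noise, which does not cover samples that deviate together. Samples of a group on days 1, 4 and 6 are independent replicates by the series' design text and the methods. On day 35 the design text counts 3 experiments for 4 samples, which of them share one is not given in the sources used here, and p-values there may rest partly on spread within an experiment. The number of arrays limits the precision.

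Pairing by replicate number was checked by correlating deviations from the group means. Averages for numbers 1, 2 and 3 were 0.09, 0.29 and 0.22 (day 1), -0.13, 0.10 and 0.12 (day 4) and 0.39, 0.23 and 0.19 (day 6). Those of numbers 1 to 4 were 0.62, 0.40, 0.28 and 0.71 on day 35, with every pair over 0.1. By the submitters' description, sham controls accompanied each replicate, while the sample labels give only the replicate number.

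Members and lists were chosen with earlier results of these data known. Named are all members, of each list up to 4 genes called against 0Gy on day 4 or 6 with the largest change at 16Gy on day 6, and the 2 genes nearest in pattern to each called member. Protein sequences were not analysed here. Alternatives were fits with or without the replicate term, single days, other filters, floors, scalings, probe means, variance priors and thresholds, and leaving out each sample.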

Additional observations from a re-analysis of the deposited data

Results flagged for a closer look

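In 24 groups of 4 day 35 samples of the tested members, 2 held a sample far from the other three by Dixon's criterion, which flags about 5% of such groups by chance. MMP1 was 8.41 in replicate 1 of 16Gy, against 6.86 to 6.89 in the other 16Gy samples. MMP2 was 8.9999 in replicate 1 of 0Gy, against 9.18 to 9.21 in the other 0Gy samples. The effect of 8Gy on MMP3 was larger on day 4 than on day 1 by a log2 value of 1.49. The effect of 16Gy was larger on day 4 than on day 1 by 1.49 for MMP12, 1.37 for MMP3 and 0.81 for MMP10, each called by limma's test of the difference between the days.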

How the results depend on the processing

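The 96 log2 fold changes of the tested members (8 members in 12 comparisons) were recomputed in 1944 alternative fits of a member, of which 1890 gave the same call, 35 lost a call, 19 gained one and 0 turned a called direction. Most of the 96 were not called in the main fits, and staying uncalled counts as the same call, so these totals do not measure how stable the calls were. They include the alternative added after seeing the data. With the replicate block on day 35, 1 member was called at 16Gy against 0Gy (MMP3, log2 1.79) in place of 0. An alternative added after seeing the data, that block with each day 35 sample left out in turn, gave 1 member at 16Gy in every fit (adjusted p of MMP3 0.000235 to 0.0482), and 0 to 1 for 16Gy against 8Gy, the 1 being MMP3 without replicate 1 of 8Gy (log2 1.14, adjusted p = 0.0542). The block changed no other call of a member on day 35. For 16Gy against 8Gy on day 4, 0 members in place of 1 were called without the short-term replicate block, with the mean of all probes, without the mean-variance trend, at an adjusted p under 0.05 and at a fold change over 2, and 0 to 2 with single samples left out. A fold change over 2 left 2 of 5 members at 16Gy and 1 of 3 at 8Gy on day 4, and 0 of 3 for 16Gy against 8Gy on day 6. Quantile normalization of all 39 samples together put TIMP1 under the fold threshold at both doses on day 4 (log2 0.52 at 8Gy, 0.57 at 16Gy) and at 8Gy on day 6 (log2 0.58), and it moved the median of all genes by up to 0.16 in a sample. MMP1 lost its call for 16Gy against 8Gy on day 6 without the trend (adjusted p = 0.133), with a robust prior (0.102) and at an adjusted p under 0.05. Raising signals to the background threshold took MMP10 at 16Gy on day 4 to a log2 fold change of 0.58, under the fold threshold. Values without a floor were identical. The cause of these changes was not tested. Signals of MMP7, MMP9, MMP10, MMP12 and MMP13 lie so near background that smaller differences could not be seen.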

Other observations

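Of 17 ADAM and ADAMTS genes, relatives of the MMPs that shed membrane proteins or cut proteoglycans, 10 were tested, and at 16Gy on day 6 3 were higher and 1 was lower, beside 7.86% of all genes. ADAMTS1, which cleaves versican and other proteoglycans, rose in limma's fit by a log2 value of 1.49 at 16Gy (SE 0.15, adjusted p = 1.28e-08) and 0.86 at 8Gy (SE 0.15, adjusted p = 0.000327) on day 6, and 16Gy exceeded 8Gy by 0.63 (SE 0.15, adjusted p = 0.0529). ADAMTS5 rose at 16Gy by 0.64 (SE 0.19, adjusted p = 0.0168) and ADAMTS6 by 0.63 (SE 0.13, adjusted p = 0.00115). ADAM8 fell at 16Gy on day 6, with 6.96 ± 0.12 against 7.76 ± 0.23 at 0Gy (SD, n = 3 each), a log2 fold change of -0.80 (SE 0.15, adjusted p = 0.000236). At 8Gy on day 6 the log2 fold change of ADAM8 was -0.13 (SE 0.15, adjusted p = 0.692), and 16Gy was lower than 8Gy by a log2 fold change of -0.68 (SE 0.15, adjusted p = 0.0356). On day 35 none of the 10 genes passed the test at either dose.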
